A study of Homo sapiens with 4 samples.

Results

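Cytoplasmic ribosomal protein genes were followed in 2 human bladder cancer cell lines, T24 and UM-UC-3, that were kept with OICR-9429 or with its solvent DMSO. Genes were taken by name: RPL or RPS followed by a number, with or without the endings A, L, X, AL or L1, together with RPLP0, RPLP1, RPLP2 and RPSA. This gave 84 genes of the 31319 listed, of which 43 code for the core of the large (60S) subunit, 31 for the small (40S) subunit, 3 for the stalk and 7 for paralogs of core proteins. The control groups were T24 in DMSO and UM-UC-3 in DMSO, and the treated groups were T24 and UM-UC-3 in 140 µM OICR-9429, all for 48 h and with 1 library each. No group carried a genetic change introduced for the experiment, and the lines themselves are the only replication. OICR-9429 is a small molecule that occupies the arginine-binding (WIN) pocket of WDR5, a scaffold of the MLL histone methyltransferase complexes. The question asked was which transcripts change in cells kept with the compound. According to the paper, the dose lies above the inhibitory concentration found for viability in these lines, and treated cells gather before DNA synthesis. The part of lower viability and of a slower cell cycle in the changes described below was not tested. Both lines are established carcinoma lines grown in different media, so line and medium cannot be told apart.

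Each ribosome holds a single copy of most of these proteins, and the cell therefore makes them in similar amounts. Their mRNAs belong to the TOP class: transcription starts at a C that is followed by an unbroken run of pyrimidines, and this start element lets LARP1 and the mTOR pathway store or translate the whole class together. WDR5 is known to sit at a subset of ribosomal protein promoters, and blockers of its WIN pocket are known from leukaemia cells to lower the transcripts of that subset. A value here is FPKM, fragments per kilobase of exon, scaled to the mapped reads of the library, so it compares transcripts per length and relative to the rest of the library. Fewer ribosomal transcripts per cell and more of other RNA, or fewer cells of a type and less RNA per cell, cannot be told apart in such bulk values.

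The start elements were read from RefSeq promoter sequences (build GRCh38.p14), in which 67 of the 84 genes had an entry. A C stood at an annotated start in 76.1% of these 67 genes, against 18.0% of all 27305 genes in the same table. A gene with more than 1 listed start was counted, here and for the other elements, if any of its starts matched. A run of at least 5 pyrimidines from a C start was found in 70.1% of them and in 5.14% of all genes. The letters CTTTC within 15 bases of the start, on the sense strand, were found in 32 of 67 genes (47.8%) and in 5.49% of all. The windows below show 15 bases on each side of the start for 8 genes, 4 with lower and 4 with higher values after OICR-9429 in both lines. They stood at the ends of the ranking by mean log2 fold change among core genes with a C start and CTTTC near it. Only genes of at least 1 FPKM in every library were ranked. Capitals mark the pyrimidine run that begins at the start site.
RPL35: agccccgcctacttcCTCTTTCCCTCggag
RPL7A: ccacaattccctttcCTTTCTCTCTCCTCC
RPL29: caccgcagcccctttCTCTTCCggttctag
RPL24: ttcccatgattctctCTTTCTTTTCgccat
RPS12: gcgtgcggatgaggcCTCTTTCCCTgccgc
RPL28: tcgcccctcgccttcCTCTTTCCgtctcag
RPS27: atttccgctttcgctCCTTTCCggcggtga
RPS13: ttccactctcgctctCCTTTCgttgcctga
These windows lie at chr9:124861943-124861972 (minus strand) for RPL35, chr9:133348203-133348232 (plus) for RPL7A, chr3:51995881-51995910 (minus) for RPL29, and chr3:101686704-101686733 (minus) for RPL24. For the others they lie at chr6:132814554-132814583 (plus) for RPS12, chr19:55385917-55385946 (plus) for RPL28, chr1:153990747-153990776 (plus) for RPS27, and chr11:17077653-17077682 (minus) for RPS13. The run was 7 to 16 bases long in the 4 lower genes, that of RPL7A reaching past the end of its window, and 6 to 10 bases in the 4 higher genes. The 8 were taken from genes that have such a run and do not show how often it occurs.

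The libraries were of similar depth, 28209432 to 29335051 reads, and the FPKM values could be worked back to whole reads for 65 of the 84 genes with GENCODE 29 exon lengths. KRT8, KRT18 and vimentin transcripts were present in both lines. The keratins KRT5, KRT19 and KRT20 were under 1 FPKM in every library, and KRT7 reached 1 FPKM only in T24 in DMSO. The 12 markers of fibroblasts, leukocytes, endothelial and erythroid cells were each under 1 FPKM, with sums of 0.472 to 1.43 FPKM per library and 5 or 6 of the 12 at 0. Of 14 urothelial markers, 3 to 5 reached 1 FPKM in a library.

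Ribosomal protein transcripts were abundant. In DMSO they took 6.55% of all FPKM in T24 and 7.58% in UM-UC-3. With OICR-9429 they took 7.45% and 7.99%, so the share was higher in the treated library of each line. The 3 most abundant by mean level were RPS12, RPS2 and RPL41. RPS2, which lies at the mRNA entry of the small subunit, went from 888 to 1030 FPKM in treated T24 cells but from 995 to 804 in treated UM-UC-3 cells. RPL41, the shortest ribosomal protein, went from 764 to 577 FPKM in treated T24 cells and from 980 to 888 in treated UM-UC-3 cells. In the 4 libraries, 51 to 61 of the 84 genes reached 100 FPKM, while 1 to 4 were under 1 FPKM. Most members therefore carry very many reads and their counting error is small beside the differences described, whereas that of the few low members is larger. Variation between cultures was not measured for any member.

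The response was not uniform across the family. In all, 83 genes reached 1 FPKM in either T24 library and 82 did so in UM-UC-3, and these same 82 passed in both lines. With 1 library per condition there is no test within a line, and a gene was called at a fold of at least 2 in FPKM + 0.5. In T24, 6 of 83 were lower, where 13.5% of all 12638 genes were, and 3 were higher, where 6.93% of all genes were. In UM-UC-3, 9 of 82 were lower, beside 12.1% of all 13086 genes, and 1 was higher, beside 14% of all genes. In both lines 5 genes were lower (6.32% of 11178 genes) and 1 was higher (2.67%). By this rule the shares of called members were below or close to those of all genes in every direction. With TMM scaling the split for T24 became 5 lower against 6 higher, and that for UM-UC-3 became 12 against 0. Among those just outside the 2-fold line were RPS10 (log2 fold change -0.92) and RPL10 (0.92) in T24, and RPL5 (-0.97) and RPL28 (0.94) in UM-UC-3.

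Smaller shifts were widespread and ran both ways. The log2 fold change was below 0 in both lines for 46 of the 82 genes, where 36.3% of all genes were, and above 0 in both for 31, where 32.8% were. Only 5 genes had opposite signs, beside 3453 of all 11178 genes. With TMM scaling the numbers were 40 below, 27 above and 15 opposite, and with median-of-ratios scaling 40, 28 and 14. At a fold of at least 1.5, 15 genes were lower in T24 (27.2% of all genes) and 19 higher (15.5%), and 26 were lower in UM-UC-3 (22.3%) and 11 higher (27.6%). In both lines 14 were lower by this rule (12.9% of all genes), among them RPL6, RPL7, RPL15, RPL27, RPL35, RPL7L1, RPL26L1 and RPS15. In both lines 8 were higher (8.57%), among them RPL28, RPS12, RPS13, RPS25 and RPS27. Across the 82 genes, T24 and UM-UC-3 responses had a Pearson r of 0.90 and a Spearman rho of 0.90, beside 0.65 and 0.56 over all genes. All genes include many at lower levels. With a minimum of 5 FPKM the values were 0.91 and 0.90 for 76 members, beside 0.73 and 0.63 over all genes. The lines have separate DMSO libraries, but genes are not independent replicates and the points of a line share its 2 libraries.

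**Figure D1:**
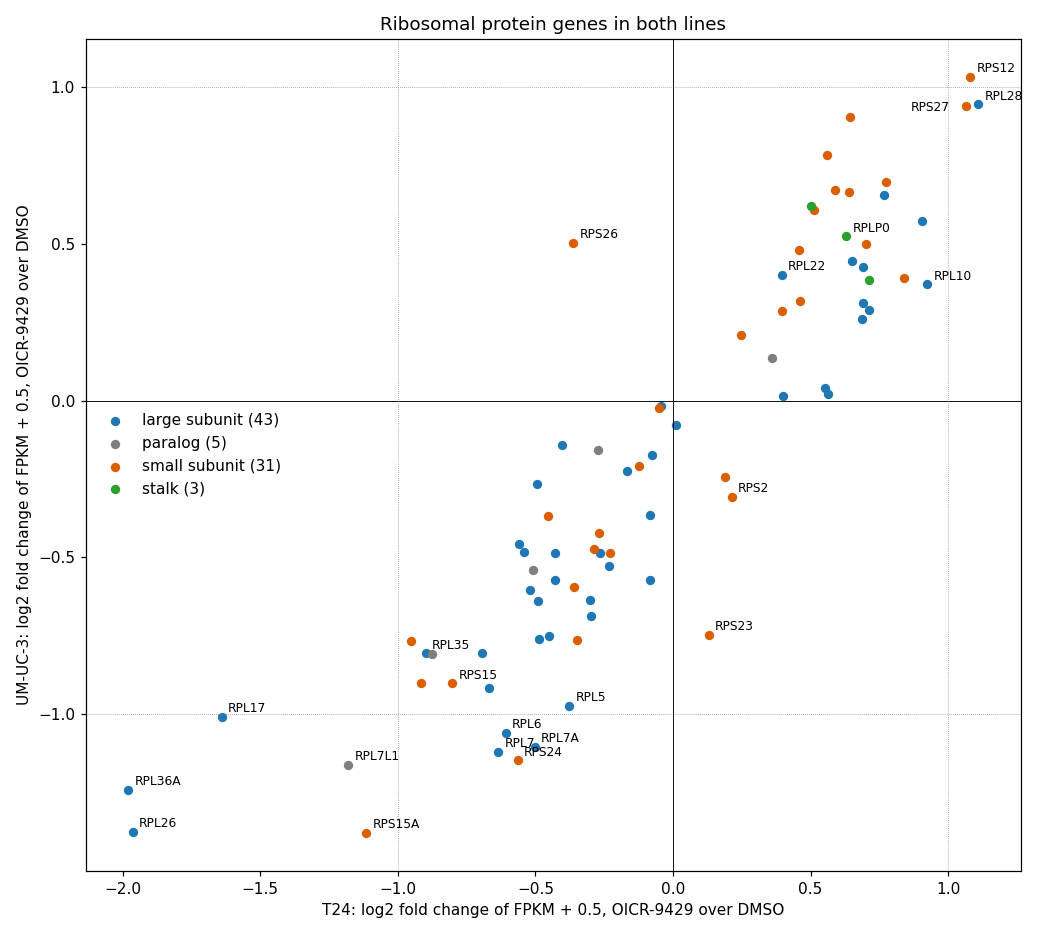
Log2 fold change of FPKM + 0.5, OICR-9429 over DMSO, in T24 (horizontal) and UM-UC-3 (vertical), 1 point per ribosomal protein gene, coloured by its place in the ribosome, with dotted lines at a 2-fold change. Of the 82 genes, 46 lie at the lower left, 31 at the upper right and 5 in the other corners.

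The median log2 fold change of the family was -0.17 in T24, where the median of all genes was -0.15, and -0.25 in UM-UC-3, where that of all genes was 0.09. Relative to all genes the family thus stood at -0.02 in T24, close to 0 and above it in some settings, and at -0.35 in UM-UC-3. Scaling by TMM moved the median of all genes by 0.16 in T24 and by -0.14 in UM-UC-3, and left the relative medians at -0.02 and -0.35. The middle of the family was about as wide as that of all genes. In T24 its quartiles were -0.50 and 0.56, against -0.63 and 0.33 for all genes. In UM-UC-3 they were -0.73 and 0.38, against -0.51 and 0.65.

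Across both lines, limma with cell line and treatment as terms tested 83 of the genes among 12584. None passed an adjusted p of 0.05 (Benjamini-Hochberg over all genes), where 3.11% of all genes fell and 0.811% rose. At an unadjusted p under 0.05 there were 33, of which 20 were lower and 13 higher, while 22.6% of all genes had such a p. This excess depends on the scaling: with TMM there were 9 members (10.8%) beside 23.6% of all genes, and with median ratios 11 (13.3%) beside 24.2%. The lowest adjusted p in limma was that of RPL7L1 (0.057, log2 fold change -1.17 ± 0.23 SE), followed by RPL26 (0.069, -1.67 ± 0.36) and RPL28 (0.070, 1.03 ± 0.22). The fit has 1 residual degree of freedom per gene, and 1 to 4 genes passed when the pseudocount was 0.1, when the values were scaled by TMM or median ratios, when only genes of at least 5 FPKM were kept, or when worked-back reads were modelled with voom.

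Genes of the large subunit had medians below those of all genes. The log2 fold change was below 0 for 29 of 43 in T24, beside 58.3% of all genes there, and for 30 of 43 in UM-UC-3, beside 45.7%, with medians of -0.30 and -0.48. Under TMM scaling 25 of 43 were below 0 in T24 (49.1% of all genes) and 33 of 43 in UM-UC-3 (52.1%), and the medians were -0.13 and -0.62. By the 2-fold rule T24 had 3 lower and 1 higher, and UM-UC-3 had 6 lower and 0 higher. The 6 were close to the share of all genes called in the same direction (12.1%), and the other counts were below theirs. Among the 6 are RPL17, RPL26 and RPL36A, low genes that share coding bases with another gene. The 43 genes together took 3.56% and 3.59% of all FPKM in T24 in DMSO and OICR-9429, and 3.96% and 3.48% in UM-UC-3.

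Among large subunit genes at high levels, RPL7, RPL7A and RPL6 had the lowest fold changes in UM-UC-3. RPL7 stood at 338 FPKM in DMSO and 218 with OICR-9429 for T24 cells, and at 455 and 209 for UM-UC-3 cells. RPL7A, which binds kinked RNA turns, read 622 FPKM without and 439 with the compound among T24 cells, and 733 and 341 among UM-UC-3 cells. RPL6 stood at 213 (DMSO) and 140 FPKM (OICR-9429) for T24 cells, and at 260 and 124 for UM-UC-3 cells. All 3 were 2.09 to 2.18 times lower in treated UM-UC-3, past the 2-fold rule, and 1.42 to 1.55 times lower in treated T24, short of it. RPL35, a protein at the exit of the peptide tunnel, went from 455 to 244 FPKM in treated T24 cells and from 322 to 184 in treated UM-UC-3 cells. RPL15 read 153 FPKM without and 96.2 with the compound among T24 cells, and 166 and 87.8 among UM-UC-3 cells. RPL27 stood at 261 (DMSO) and 161 FPKM (OICR-9429) for T24 cells, and at 237 and 135 for UM-UC-3 cells. These 3 were lower in treated cells of both lines by 1.59 to 1.89 times. RPL29 and RPL24, whose start windows are shown above, had log2 fold changes of -0.49 and -0.52 on the T24 side and -0.64 and -0.60 on the UM-UC-3 side.

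RPL5 and RPL11 carry the 5S rRNA into the large subunit and, when free, bind MDM2 and so stabilise p53. RPL5 went from 238 to 183 FPKM in treated T24 cells and from 378 to 192 in treated UM-UC-3 cells. RPL11 read 345 FPKM without and 294 with the compound among T24 cells, and 316 and 219 among UM-UC-3 cells. Both were lower in both treated libraries, with log2 fold changes of -0.38 and -0.23 on the T24 side and -0.97 and -0.53 on the UM-UC-3 side. The gap between the lines was 0.59 for RPL5 on the log2 scale, among the widest in the family, and was not tested.

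A smaller set of large subunit genes stood higher. RPL28, which has no counterpart in bacteria, stood at 69.4 FPKM in DMSO and 150 with OICR-9429 for T24 cells, and at 105 and 203 for UM-UC-3 cells. The 95% counting intervals of its 2 libraries lay far apart in each line (68.3 to 70.6 against 149 to 152 FPKM in T24). Such intervals cover counting error only and not variation between cultures. RPL13A, also known for silencing inflammatory mRNAs as part of the GAIT complex, stood at 468 (DMSO) and 877 FPKM (OICR-9429) for T24 cells, and at 645 and 959 for UM-UC-3 cells. RPL10, one of the last proteins to join the large subunit, read 107 FPKM without and 203 with the compound among T24 cells, and 141 and 182 among UM-UC-3 cells. These 3 were higher in both treated libraries, and of them RPL28 alone passed the 2-fold rule, in T24.

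**Figure D2:**
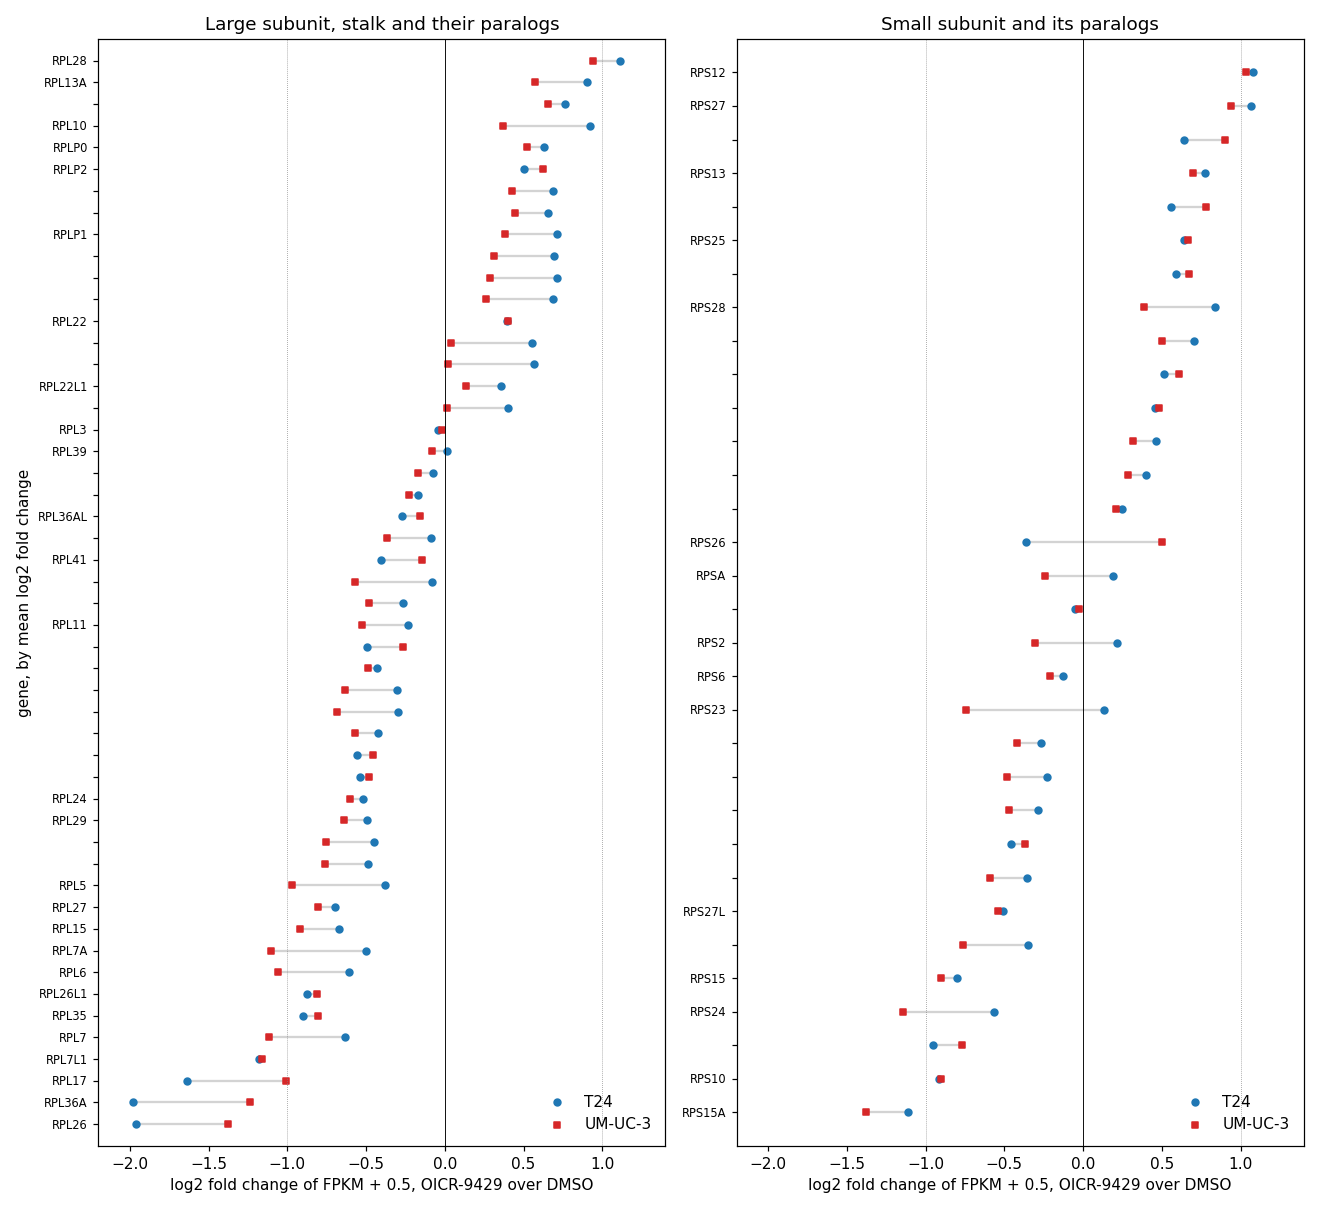
Log2 fold change of FPKM + 0.5, OICR-9429 over DMSO, for each ribosomal protein gene that reached 1 FPKM in both lines, 1 row per gene ordered by the mean of the lines, with part of the rows named, with circles for T24 and squares for UM-UC-3 and dotted lines at a 2-fold change. Large subunit genes reach from RPL26 (-1.96 and -1.38) to RPL28 (1.11 and 0.94), and small subunit genes from RPS15A (-1.12 and -1.38) to RPS12 (1.08 and 1.03).

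The stalk recruits translation factors to the ribosome and consists of RPLP0 with RPLP1 and RPLP2. RPLP0 stood at 484 (DMSO) and 749 FPKM (OICR-9429) for T24 cells, and at 464 and 667 for UM-UC-3 cells. RPLP1 went from 169 to 278 FPKM in treated T24 cells and from 404 to 526 in treated UM-UC-3 cells. RPLP2 read 242 FPKM without and 342 with the compound among T24 cells, and 231 and 355 among UM-UC-3 cells. All 3 were higher in both treated libraries, with median log2 fold changes of 0.63 (T24) and 0.52 (UM-UC-3), and they stayed above 0 with both other scalings. None passed the 2-fold rule.

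Small subunit genes were split. The log2 fold change was below 0 for 14 of 31 in T24, beside 58.3% of all genes there. In UM-UC-3 it was below 0 for 16 of 31, beside 45.7% of all genes. The medians were 0.19 and -0.02, and relative to all genes they stood at 0.34 in T24 and at -0.12 in UM-UC-3. The median in UM-UC-3 was -0.16 under TMM scaling, and that in T24 was 0.36. Their share of all FPKM was nevertheless higher in both treated libraries: 2.55% and 3.25% in T24 in DMSO and OICR-9429, and 3.13% and 3.85% in UM-UC-3. RPS12, the most abundant among them, was higher in both lines.

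RPS12, at the beak of the small subunit, was the only gene called higher in both lines and the most abundant of the family by mean level. It stood at 596 (DMSO) and 1262 FPKM (OICR-9429) for T24 cells, and at 738 and 1511 for UM-UC-3 cells. The 95% counting intervals were 586 to 606 and 1247 to 1276 FPKM in T24, and 727 to 750 and 1495 to 1527 FPKM for UM-UC-3 cells. The log2 fold change was 1.08 (T24) and 1.03 (UM-UC-3). In UM-UC-3 it dropped below the 2-fold line with TMM and median-of-ratios scaling.

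RPS27, a zinc finger protein, went from 267 to 559 FPKM in treated T24 cells and from 302 to 580 in treated UM-UC-3 cells. RPS13 stood at 152 (DMSO) and 259 FPKM (OICR-9429) for T24 cells, and at 158 and 257 for UM-UC-3 cells. Both were higher in both treated libraries, by 1.62 to 2.09 times, and RPS27 passed the 2-fold rule in T24.

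RPS24, a small subunit protein mutated in Diamond-Blackfan anaemia, went from 179 to 121 FPKM in treated T24 cells and from 181 to 81.3 in treated UM-UC-3 cells. RPS15, needed for export of the small subunit from the nucleus, read 319 FPKM without and 183 with the compound among T24 cells, and 278 and 149 among UM-UC-3 cells. Both were lower in both treated libraries, and RPS24 passed the 2-fold rule in UM-UC-3. RPS6, the substrate of the S6 kinases, stood at 251 (DMSO) and 230 FPKM (OICR-9429) for T24 cells, and at 755 and 652 for UM-UC-3 cells. RPSA, also known as a laminin receptor, went from 266 to 304 FPKM in treated T24 cells and from 288 to 244 in treated UM-UC-3 cells. Their changes were small, at log2 fold changes of -0.12 and -0.21 for RPS6 and of 0.19 and -0.24 for RPSA.

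**Figure D3:**
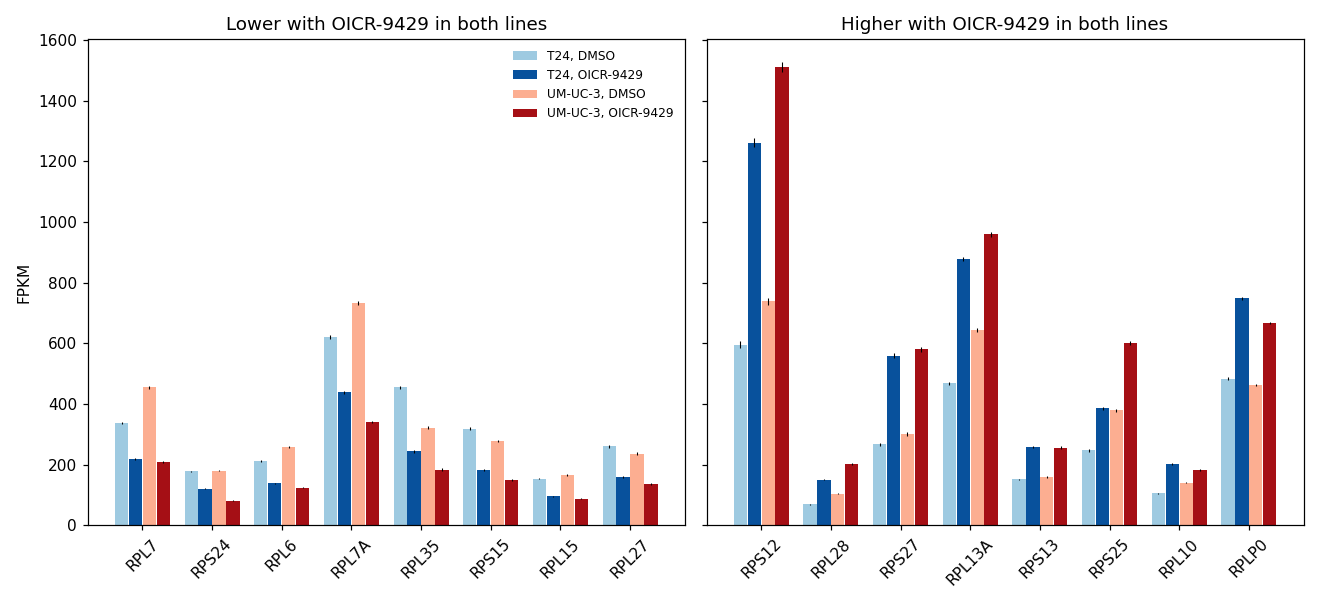
FPKM in the 4 libraries for 8 ribosomal protein genes that were lower and 8 that were higher with OICR-9429 in both lines, with exact 95% Poisson intervals of the reads as error bars, which cover counting error only. In the left panel the OICR-9429 bar of each line is shorter than its DMSO bar and in the right panel it is taller, from RPL7 (455 and 209 FPKM in UM-UC-3) to RPS12 (738 and 1511 FPKM).

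Among the 82 genes that passed in both lines, the fold changes differed most in RPS23 and RPS26. RPS23, which contacts the decoding centre, read 4.09 FPKM without and 4.52 with the compound among T24 cells, and 10.4 and 6.02 among UM-UC-3 cells. Over its coding bases, 57.1% lie within exons of ATG10 on the opposite strand, and whether counting used strand is not given in the sources used here. RPS26, which lies at the mRNA exit of the small subunit, stood at 113 (DMSO) and 87.4 FPKM (OICR-9429) for T24 cells, and at 327 and 464 for UM-UC-3 cells, and 14 pseudogenes of RPS26 are listed. The log2 fold changes were 0.13 and -0.75 for RPS23, and -0.36 and 0.50 for RPS26. Levels in DMSO also differed between the lines, with UM-UC-3 2.91 times above T24 for RPS26, 3.0 times for RPS6 and 4.29 times for RPS28. With 1 DMSO library per line these differences have no replicate check. The pseudogene RPS28P7 differed the other way, at 830 FPKM in T24 and 382 in UM-UC-3 in DMSO. Whether it shares reads with RPS28 was not tested.

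Apart from RPL39L, the 3 lowest fold changes of each line belonged to genes that share bases with a neighbour. In GENCODE 29, 7 members have at least 30% of their coding bases within exons of another gene on the same strand, among them RPL17 (98.2%), RPL36A (67.3%), RPL26 (60.7%), RPL22 (59.4%), RPS10 (56.9%) and RPS15A (36.9%). For RPL17, RPL36A and RPS10 that gene is a readthrough locus, RPL17-C18orf32, RPL36A-HNRNPH2 and RPS10-NUDT3. All of the genes named here but RPL22 were listed at low levels, with means of 1.00 to 3.39 FPKM. RPL26, which sits at the tunnel exit, went from 5.59 to 1.06 FPKM in treated T24 cells and from 5.22 to 1.70 in treated UM-UC-3 cells. RPL36A read 2.76 FPKM without and 0.327 with the compound among T24 cells, and 3.56 and 1.22 among UM-UC-3 cells. RPL17 stood at 2.18 (DMSO) and 0.359 FPKM (OICR-9429) for T24 cells, and at 1.62 and 0.556 for UM-UC-3 cells. Each was called lower in both lines, on 26 to 399 reads per library.

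RPS15A went from 2.82 to 1.03 FPKM in treated T24 cells and from 3.59 to 1.07 in treated UM-UC-3 cells, and was likewise called lower in both. RPS10, which is ubiquitinated by ZNF598 when ribosomes collide, read 1.27 FPKM without and 0.436 with the compound among T24 cells, and 1.64 and 0.647 among UM-UC-3 cells. It was short of the 2-fold rule in FPKM + 0.5, a scale that understates the change of low genes. The listed levels of these genes hold few of the reads seen for other core members, and the part of the shared bases in their changes was not tested. Without the 7 genes, T24 had 2 lower and 3 higher, UM-UC-3 had 5 lower and 1 higher, and both lines shared 1 lower and 1 higher. When paralogs were left out as well, 70 core genes remained, with 0 lower and 3 higher for T24 and with 4 lower and 1 higher for UM-UC-3. Their medians were -0.06 and -0.19.

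Paralogs replace or accompany core proteins in some tissues, and 6 of the 7 reached 1 FPKM in T24 and 5 in UM-UC-3. RPL7L1, a relative of RPL7 whose yeast counterpart acts in ribosome assembly, went from 33.5 to 14.5 FPKM in treated T24 cells and from 36.6 to 16.1 in treated UM-UC-3 cells, and was called lower in both lines. It shares no exon bases with another gene, unlike the other 4 genes called lower in both lines. RPL26L1 read 28.9 FPKM without and 15.5 with the compound among T24 cells, and 38.9 and 22.0 among UM-UC-3 cells. RPL39L, known from male germ cells and cancer cells, had 9.81 and 1.13 FPKM in T24 (95% counting intervals 8.73 to 10.98 and 0.784 to 1.57), the lowest log2 fold change of the family in that line (-2.66). In UM-UC-3 it was at 0 in both libraries, where the 95% counting intervals reach up to 0.123 FPKM in DMSO and 0.119 with OICR-9429. Its parent RPL39 stood at 104 (DMSO) and 105 FPKM (OICR-9429) for T24 cells, and at 111 and 105 for UM-UC-3 cells.

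RPL22L1 went from 6.17 to 8.05 FPKM in treated T24 cells and from 15.6 to 17.2 in treated UM-UC-3 cells, and its parent RPL22 read 88.5 FPKM without and 117 with the compound among T24 cells, and 65.65 and 86.8 among UM-UC-3 cells. RPL36AL stood at 121 (DMSO) and 99.9 FPKM (OICR-9429) for T24 cells, and at 119 and 106 for UM-UC-3 cells, far above the listed level of RPL36A. RPS27L, a p53 target, went from 2.76 to 1.79 FPKM in treated T24 cells and from 5.93 to 3.92 in treated UM-UC-3 cells. Parent and paralog went different ways in RPS27, which was higher in both treated lines, and RPS27L, which was lower. RPL3L, a paralog of heart and skeletal muscle, had at most 0.103 FPKM in any library, and RPL3 read 351 FPKM without and 341 with the compound among T24 cells, and 331 and 327 among UM-UC-3 cells.

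Other features of the lower and higher genes are given as descriptions, without a test. The 46 genes below 0 in both lines took 3.55% and 2.72% of all FPKM in T24 in DMSO and OICR-9429, and 3.97% and 2.81% in UM-UC-3. The 31 above 0 took 2.46% and 4.12% of the T24 total, and 2.96% and 4.56% of the UM-UC-3 total. The groups were formed by these same values, and the shares show only how much RNA stands behind them. Their median mean level was 130 FPKM for the lower and 238 FPKM for the higher genes. A snoRNA, processed from the introns of its host, lies within 11 of the 46 lower genes (23.9%) and 14 of the 31 higher genes (45.2%). The mean fold change over the lines had a Spearman rho of 0.43 with the mean FPKM, 0.27 with the number of snoRNAs and -0.14 with exon length (n = 82 genes). Without paralogs and the 7 sharing genes (n = 70) rho with the mean FPKM was 0.26. The mean FPKM, here and in the group medians, includes the treated libraries and so is not independent of the fold changes.

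Start elements were found in both groups. The letters CTTTC stood near the start of 17 of 38 lower genes (44.7%) and of 14 of 25 higher genes (56.0%) with a promoter entry, and a pyrimidine run of at least 5 bases in 60.5% and 84.0%. The paralogs RPL7L1, RPL26L1, RPL36AL and RPS27L, all in the lower group, had no such run. RPL22L1, a paralog in the higher group, had a run of 6 bases. Core genes without such a run occurred in both groups, such as RPL6 and RPL19. In the 250 bases before to 50 after the start, on both strands, the ETS motif CCGGAAG was found in 35.8% of the 67 members and in 12.2% of all genes. It stood in 16 of 38 lower genes (42.1%) and 8 of 25 higher genes (32.0%). The YY1 motif AAGATGGC was in 10.4% of members and 3.52% of all, the E-box CACGTG in 7.46% and 8.77%, and TATAAA in 8.96% and 14.0%. A match describes these letters only, and no binding was measured here.

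Ribosomal protein pseudogenes, intronless copies that can share reads with their parents, made up 416 listed genes. Together they took 1.31% and 1.62% of all FPKM in T24 in DMSO and OICR-9429, and 1.17% and 1.18% in UM-UC-3. Of those that reached 1 FPKM, 63 of 80 in T24 and 62 of 79 in UM-UC-3 had the sign of their parent gene. RPL7P1, which went from 180 to 129 FPKM in treated T24 cells and from 262 to 114 in treated UM-UC-3 cells, ran beside RPL7. With pseudogene FPKM added to the parents, T24 had 2 genes lower and 3 higher, UM-UC-3 had 6 lower and 1 higher, and 1 was lower (RPL7L1) and 1 higher (RPS12) in both.

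**Figure D4:**
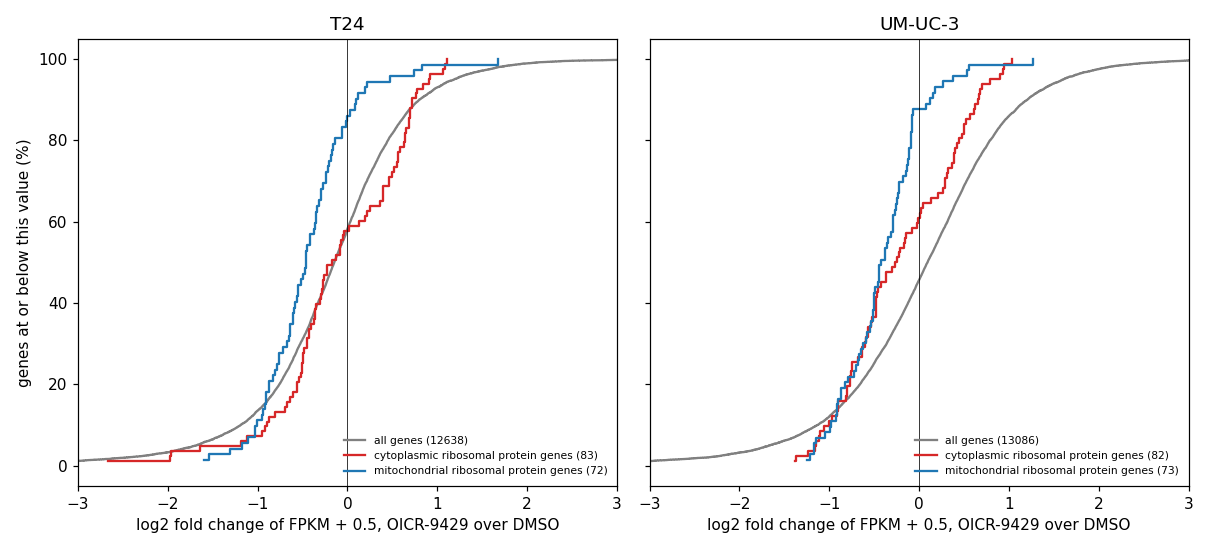
Share of genes at or below each log2 fold change of FPKM + 0.5, OICR-9429 over DMSO, for all genes, cytoplasmic ribosomal protein genes and mitochondrial ribosomal protein genes that reached 1 FPKM in a line. In T24 the cytoplasmic genes cross the median near that of all genes (-0.17 and -0.15), in UM-UC-3 to its left (-0.25 and 0.09), and the mitochondrial set lies to the left in both (-0.46 and -0.42).

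Nuclear genes for the mitochondrial ribosome, which translates the proteins encoded by mitochondrial DNA, were measured as a second ribosome. Of 76 listed, 72 passed for T24 and 73 for UM-UC-3, and the medians were -0.46 and -0.42. In T24 8 were lower and 1 higher, in UM-UC-3 6 and 1, and 4 were lower in both (MRPL1, MRPL11, MRPL35 and MRPL39). These counts are close to or below the shares of all genes called lower (13.5%, 12.1% and 6.32%). MRPL39 stood at 40.7 (DMSO) and 13.1 FPKM (OICR-9429) for T24 cells, and at 31.7 and 14.0 for UM-UC-3 cells, and it fell in limma over both lines (log2 fold change -1.37 ± 0.25 SE, adjusted p = 0.049). The mitochondrial set was below 0 for 62 of 72 genes in T24 and 64 of 73 in UM-UC-3, beside 48 of 83 and 50 of 82 cytoplasmic genes and 58.3% and 45.7% of all genes. The difference between the sets was not tested.

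FAU, a fusion of a ubiquitin-like protein with RPS30, had log2 fold changes of 0.09 and 0.42, and RACK1, a signalling scaffold on the small subunit, had -0.08 and -0.13. Neither was called.

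Other transcripts of the TOP class had medians above those of all genes (-0.15 and 0.09). The list holds snoRNA hosts beside mRNAs for proteins, and GAS5, SNHG5 and SNHG8 among these hosts are part of the calls. Of 27 matched, T24 had 6 higher and 0 lower, and UM-UC-3 had 4 higher and 3 lower, with medians of 0.62 and 0.29. Of all genes, 6.93% were called higher in T24, and 14% higher and 12.1% lower in UM-UC-3, so the UM-UC-3 counts are near the background. TPT1 (a translationally controlled tumour protein) and GAS5 (a snoRNA host whose transcript is degraded during translation) rose in limma over both lines, with log2 fold changes of 1.28 ± 0.22 (SE) and 1.36 ± 0.22 and adjusted p of 0.039 and 0.034. TPT1 went from 46.5 to 113 FPKM in treated T24 cells and from 51.4 to 127 in treated UM-UC-3 cells. GAS5 read 57.2 FPKM without and 141 with the compound among T24 cells, and 50.4 and 136 among UM-UC-3 cells. Without the FPKM minimum or without the term for cell line, limma called 0 genes of the whole table, these included. SNHG5, another snoRNA host, was called higher in both lines (1.38 and 1.10).

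Of the translation factors in the class, 3 were called, all in T24. EEF1A1, the factor that brings tRNAs to the ribosome, stood at 2068 (DMSO) and 5172 FPKM (OICR-9429) for T24 cells, and at 2163 and 3429 for UM-UC-3 cells. EIF4B went from 69.4 to 184 FPKM in treated T24 cells and from 137 to 179 in treated UM-UC-3 cells. PABPC1, the poly(A) binding protein, read 393 FPKM without and 790 with the compound among T24 cells, and 557 and 704 among UM-UC-3 cells. Each was called higher in T24 alone, and the difference between the lines was not tested. EEF1A1 has near-identical pseudogenes, so its level is uncertain. EEF2 had log2 fold changes of 0.41 and -0.34. In UM-UC-3, SNHG8 was called higher (1.20), and VIM (-1.20), IPO5 (-1.08) and HNRNPA1 (-1.16) were called lower.

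Genes that handle ribosomal proteins or their mRNAs were mostly not called. Of 16 chaperones and importers of ribosomal proteins, 0 were called in either line, with medians of -0.30 and -0.15. The most abundant, IPO7 and KPNB1, had log2 fold changes of 0.25 and -0.25 on the T24 side and 0.01 and -0.12 on the UM-UC-3 side. Among 24 regulators of ribosomal protein mRNA the medians were -0.01 and 0.43, and that of T24 was 0.16 under TMM scaling. The calls in T24 were 1 in each direction. Those in UM-UC-3 were 4 higher, where 14% of all genes were, against 0 lower. DDIT4, an inhibitor of mTOR complex signalling, stood at 21.0 (DMSO) and 63.0 FPKM (OICR-9429) for T24 cells, and at 4.55 and 62.2 for UM-UC-3 cells, and was higher in both. SESN2, which also restrains mTOR, went from 32.2 to 41.1 FPKM in treated T24 cells and from 9.33 to 88.5 in treated UM-UC-3 cells. MTOR (1.17) and LARP1B (1.63) were called higher in UM-UC-3, and HNRNPD (-1.44) lower in T24. MYC, a driver of ribosomal protein transcription, had log2 fold changes of 0.11 and 0.53, and CNBP, which binds TOP mRNAs, 0.07 and -0.11. Of 17 quality control genes, HBS1L (-1.04) was lower in T24, and the collision sensor ZNF598 (1.33) and the ligase LTN1 (1.22) were higher in UM-UC-3. These counts too are near or below the background.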

How the data were processed

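The authors deposited FPKM values per gene, 1 table per library, for 4 libraries. Per the submitters' notes, reads were made with bcl2fastq 2.19.1, aligned to hg19 (HISAT2 2.1.0) and counted with HTSeq 0.6.1, roles taken from what each tool does, while the lengths behind the FPKM matched merged exons of GENCODE 29. Whether counting used strand is not given in the sources used here. FPKM × exon length × library total gave whole reads (within 1e-06 of the number of reads) for 29029 genes (92.7%) and for 65 of 84 members (77.4%). For the other 19 a length was worked out from the values. Library totals were 28863243, 29335051, 28209432 and 29184912 reads (T24 in DMSO and OICR-9429, then UM-UC-3). Headings of treated columns contain an unexplained 125, and the labels' dose of 140 µM was used. Other columns of values left out: 0.

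Log2 fold changes used FPKM + 0.5 and genes with at least 1 FPKM in either library of a line, and a gene was called at 2-fold with no test. Over both lines, limma 3.58.1 (R 4.3.3) took log2(FPKM + 0.5), with lmFit and a trended eBayes, for genes with at least 1 FPKM in at least 2 libraries, with cell line and treatment as terms, and p-values were adjusted by Benjamini-Hochberg over all genes. Samples pair by cell line, as labelled. The lines are the only replication. The standard errors and p-values combine each gene's spread between them with a variance trend fitted over all tested genes. Single FPKM values carry exact Poisson intervals at 95%. Shares and correlations are descriptions. Python 3.11.15, numpy 2.4.6, pandas 2.3.3, scipy 1.17.1 and matplotlib 3.10.9 were used, and the limma step was tested on simulated data.

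Members named with their levels are those called in a line, the 5 highest and 5 lowest by mean log2 fold change, the 3 most abundant, the 3 in each direction that differ most between lines, paralogs with their parents, the stalk, RPL5, RPL11, RPS6 and RPSA. Of each list, called genes, the most abundant and the most changed were named. RPL7P1 and the further members of the 1.5-fold groups and start windows were chosen after their values were seen. Some genes that this rule names are not reported here by name, though they are counted. The members and lists were chosen with earlier results of these data known. Alternatives were TMM and median-of-ratios scaling, pseudocounts of 0.1 and 1, no minimum or 5 FPKM, folds of 1.5 and 4, pseudogene FPKM added to parents, voom on worked-back reads, no term for cell line, and, chosen after seeing the data, the removal of 7 members with shared coding bases.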

Additional observations from a re-analysis of the deposited data

Results flagged for a closer look

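In 5 genes the libraries of T24 and UM-UC-3 moved in opposite directions, a difference that was not tested. The log2 fold change in T24 minus that in UM-UC-3 was 0.88 for RPS23 and -0.87 for RPS26, the widest gaps among the 82 genes that passed in both lines. It was 0.52 for RPS2, 0.43 for RPSA and 0.090 for RPL39, whose own changes were near 0. With TMM scaling 15 genes had opposite signs, so membership of this group depends on the scaling. RPS26 and RPSA have 14 and 30 listed pseudogenes.

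Ribosomal protein pseudogenes, which the comparisons of the family do not use, took 1.62% of all FPKM in T24 with OICR-9429, above the 1.31% in DMSO. In UM-UC-3 they took 1.18% and 1.17%. Among them, RPLP0P2 was listed at 25.8 FPKM in treated UM-UC-3 cells and at 0.172 FPKM in DMSO. RPLP0 itself had log2 fold changes of 0.63 and 0.52.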

How the results depend on the processing

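The number of genes called lower in T24 (6) was 3 with a minimum of 5 FPKM, 15 at 1.5-fold, 1 at 4-fold, 2 with pseudogenes added and 2 without the 7 genes that share coding bases. The number higher in T24 (3) was 6 with TMM, 5 with median-of-ratios scaling, 19 at 1.5-fold and 0 at 4-fold. In UM-UC-3 the number lower (9) was 26 at 1.5-fold, 0 at 4-fold and 5 without the 7 genes, and the number higher (1) was 0 with TMM, 0 with median ratios, 11 at 1.5-fold and 0 at 4-fold. In both lines the number lower (5) was 3 with a pseudocount of 1, 2 with a minimum of 5 FPKM, 14 at 1.5-fold, 0 at 4-fold, 1 with pseudogenes added and 1 without the 7 genes, and the number higher (1) was 0 with either scaling, 8 at 1.5-fold and 0 at 4-fold. The median log2 fold change in T24 (-0.17) was -0.0011 with TMM and -0.014 with median ratios, and that in UM-UC-3 (-0.25) was -0.39 with each. Genes that fell in limma (0) numbered 2 with TMM, 3 with median ratios, 1 with a pseudocount of 0.1, 2 with a minimum of 5 FPKM and 2 with voom, where 2 rose. The gain in the family's share of FPKM in T24 (0.899 percentage points) was 1.22 with pseudogenes added and 1.20 without mitochondrially encoded genes. These changes follow from the settings' own construction for folds and minimums, and for the others the cause was not tested.

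Of the alternatives to the main counts, medians and shares, 60 kept the value within its limit and 38 did not. Neither the family's own median in a line nor its gain in share changed sign, but other medians did. The T24 median relative to all genes (-0.02) was 0.029 with a minimum of 5 FPKM, 0.024 with pseudogenes added and 0.063 without the 7 genes. T24 calls, 6 lower and 3 higher, were 5 and 6 with TMM, and the T24 median of the regulators (-0.01) was 0.16. The labels give no replicate numbers, so pairing is by cell line: without this block limma found 0 members, and 12 at an unadjusted p under 0.05 in place of 33. Leaving out a library was not run, since it leaves a line without a comparison. Genes under a few FPKM, such as RPL17 and RPS10, rest on few reads.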
